A study of Mus musculus with 16 samples.

Results

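The genes described here are 40 interferon-stimulated genes, taken from a fixed list of symbols that was chosen with earlier results of these data known. All 40 were found among the 11713 genes of the deposited count table. They were followed as a module in the mouse spleen: the level in each antibody-gated class of cells, the members that varied together within B cells and T cells, and the difference between the 2 libraries.

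Type I interferons signal through the receptor pair Ifnar1 and Ifnar2 and the kinases Jak1 and Tyk2, and type II interferon signals through Ifngr1 and Ifngr2. The first route activates a complex that includes Stat2 and Irf9 and binds promoters carrying repeated GAAA elements, and the second acts on promoters carrying palindromic TTC and GAA elements. The genes so induced encode sensors of foreign nucleic acid, antiviral effectors, GTPases that attack the membranes around intracellular pathogens, and regulators that amplify or end the response. Many of them are also transcribed at a low, tonic level in the absence of infection, and spleen is a tissue where such basal expression has been described.

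The study measured messenger RNA together with 30 surface antigens in the same droplets (CITE-seq, in which antibodies carry sequence tags that are counted beside the transcripts). The material was dissociated spleen of female BALB/cJ mice, an inbred strain, aged 9 months, with red cells lysed before staining. Main1 and Main2 each have 4 samples of RNA and 4 of antibody tags, 16 in all. The deposited tables merge them into 2 sets of droplets, called Main1 and Main2 here too, and the 4 samples of each kind could not be separated. No label names a mutation, a treatment or a time course, and strain, sex, age and tissue are the same for Main1 and Main2. The series text names the spleens of 2 mice, but no label says whether Main1 and Main2 are different animals. Where classes of cells are compared, the library is a block in the fit. The p-values therefore rest on how differences between classes varied between these 2 sets, a spread pooled over genes and classes. That spread may be technical.

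Main1 held 3179 droplets and 7964712 unique molecular identifiers (UMIs, each a counted transcript molecule), with a median of 1789 per droplet. Main2 held 3918 droplets and 10174799 UMIs, with a median of 1778. The sets shared 14 droplet barcodes. Gates set on antibody tags placed 5976 droplets (84.2%) in a class, and 10 droplets met more than 1 gate. The gates held 5008 B cells, 393 CD4 T cells, 64 CD8 T cells, 130 NK cells, 57 neutrophils, 84 Ly6C-high monocytes, 57 F4/80 macrophages, 35 plasmacytoid dendritic cells, 91 CD11c dendritic cells and 57 erythroid cells. Every listed marker transcript of the B, T, CD4 T, CD8 T, NK, neutrophil, macrophage, plasmacytoid dendritic and erythroid lists was highest in its own gate. For monocytes this held for 3 of 5 markers and for CD11c dendritic cells for 4 of 6. Levels below are CPM, the UMIs of a gene scaled to the total UMIs of the gate, given for Main1 and then for Main2.

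The promoter sequence of the members was read from RefSeq on GRCm38.p6, from 250 bases before to 50 bases after the start site, with an entry for 34 of the 40. A pair of GAAA blocks 2 bases apart, the motif GAAANNGAAA on either strand, was present in 20 of these 34 promoters (58.8%). It was present in 362 of the promoters of 9044 genes of the count table (4%), and in 8 of 28 promoters (28.6%) of further interferon-stimulated genes that are no members. The palindrome TTCNNNGAA was present in 7 of the 34 (20.6%) and in 763 of the 9044 (8.44%). A match is a run of letters and not a measured binding site. The windows below are shown because these members carry the largest contrasts between classes or because their promoters resemble each other. Each is 60 bases long and written 5′ to 3′ on the strand of the gene, and capitals mark every match to GAAANNGAAA or to its reverse complement TTTCNNTTTC.
Isg15, chr4:156200856-156200915, minus strand: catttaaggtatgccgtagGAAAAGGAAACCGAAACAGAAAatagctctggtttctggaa
Ifit1, chr19:34640779-34640838, plus strand: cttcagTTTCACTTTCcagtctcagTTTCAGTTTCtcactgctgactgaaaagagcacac
Gbp2, chr3:142620579-142620638, plus strand: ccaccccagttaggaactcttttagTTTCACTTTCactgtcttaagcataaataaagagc
Gbp7, chr3:142530258-142530317, plus strand: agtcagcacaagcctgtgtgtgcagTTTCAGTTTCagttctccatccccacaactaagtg
Igtp, chr11:58199497-58199556, plus strand: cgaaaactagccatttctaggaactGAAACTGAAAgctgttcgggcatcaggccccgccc
Bst2, chr8:71537562-71537621, minus strand: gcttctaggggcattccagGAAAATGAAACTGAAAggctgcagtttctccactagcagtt
Ifitm3, chr7:141010708-141010767, minus strand: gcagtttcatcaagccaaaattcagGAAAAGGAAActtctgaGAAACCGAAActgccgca

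The Isg15 window holds 3 overlapping matches in a row, centred 67 bases before the start site, and the Ifit1 window holds 2 separate ones. Those of Gbp7 and Gbp2 lie 48 and 54 bases before the start, and that of Igtp 29 bases before it. In Ifitm3 both matches lie just after the start, at 7 and 24 bases. Of the 4 members of the Ifi200 family, all on chromosome 1, Ifi203, Ifi206 and Ifi214 carry the same 10 letters, GAAATCGAAA, as their windows show, and the promoter of Ifi209 holds no match.
Ifi203, chr1:173942493-173942552, minus strand: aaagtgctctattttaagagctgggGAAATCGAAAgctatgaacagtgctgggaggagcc
Ifi206, chr1:173491324-173491383, minus strand: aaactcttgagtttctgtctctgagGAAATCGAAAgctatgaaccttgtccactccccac
Ifi214, chr1:173536002-173536061, minus strand: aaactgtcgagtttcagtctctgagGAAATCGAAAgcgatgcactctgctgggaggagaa
Over these 60 bases, without gaps, Ifi214 was identical to Ifi203 at 70% of positions and to Ifi206 at 70%, and Ifi203 was identical to Ifi206 at 56.7%.

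The module as a whole was highest in Ly6C-high monocytes and lowest in erythroid cells. Summed over the 40 members, monocytes held 108.8 and 124.2 member UMIs per 10000 UMIs in Main1 and Main2. Plasmacytoid dendritic cells followed with 59.84 and 75.83, then CD4 T cells with 35.49 and 33.42 and CD8 T cells with 32.4 and 31.41. These classes kept this order in both libraries, although the CD4 T and CD8 T values overlapped within counting error. Neutrophils (21.79 and 28.93), macrophages (27.32 and 21.86), NK cells (21.04 and 24.22) and CD11c dendritic cells (20.79 and 19.01) lay around the B gate, at 22.84 and 22.56, and their order differed between the libraries. Erythroid cells held 6.873 and 6.384.

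The sum was carried by a single gene in several classes. Ifitm3 gave 48% of member UMIs in monocytes, 46.3% in neutrophils, 33.1% in macrophages and 29.9% in CD11c dendritic cells. Bst2 gave 60.1% in plasmacytoid dendritic cells. With its leading member left out, the monocyte level was 60.48 per 10000 and the plasmacytoid level 27.43, beside 25.49 in CD4 T cells and 18.61 in B cells treated likewise. By library, the plasmacytoid level then was 22.58 and 31.35 and the CD4 T level 26.38 and 24.63, so their order differed between Main1 and Main2. In B cells and CD4 T cells the leading member was Ifi27l2a, with 18% and 26% of member UMIs. All levels are relative to the RNA captured in the same gate.

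**Figure D1:**
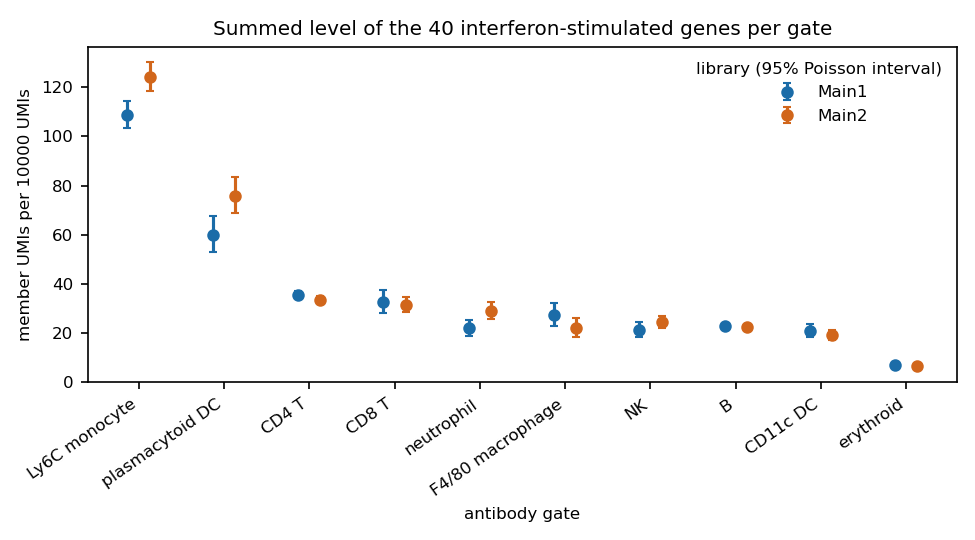
Summed level of the 40 members, in UMIs per 10000 UMIs, in each antibody gate, with 1 point per library and exact Poisson intervals that cover counting error only. Ly6C-high monocytes lie highest in both libraries (108.8 and 124.2) and erythroid cells lowest (6.873 and 6.384).

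Among single members, 18 of 40 had their highest level in monocytes, 11 of them in both libraries. CD8 T cells were highest for 7 members (3 in both libraries), plasmacytoid dendritic cells for 6 (3 in both), and CD4 T cells and NK cells for 3 each (1 each in both). The B gate was highest for 1 member, Samd9l, the macrophage gate for 1, Rsad2, and the erythroid gate for 1, Isg20. The classes with the fewest droplets have the widest counting error, and many of these orders rest on few UMIs.

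**Figure D2:**
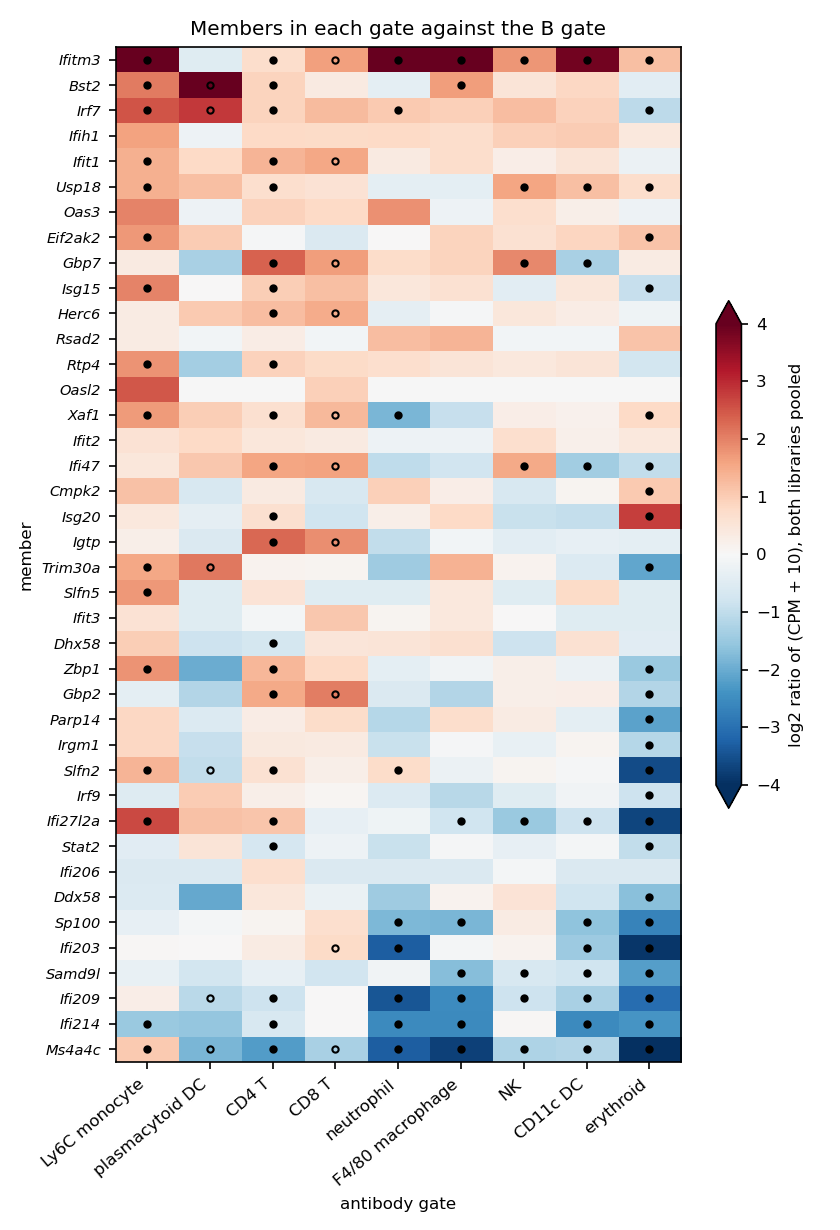
Log2 ratio of CPM plus 10 in each antibody gate (columns) to that in the B gate, for each member (rows), both libraries pooled, with the colour scale ending at 4 in each direction. Filled dots mark an edgeR adjusted p under 0.05 and open dots the same in the added fit with the CD8 T and plasmacytoid gates; Ifitm3 stands out in the myeloid gates and Bst2 in the plasmacytoid gate.

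Each class was compared with the B gate on sums of UMIs per library and class, with edgeR's quasi-likelihood test and Benjamini-Hochberg adjustment over the 9392 genes with at least 50 UMIs. A gate entered with 20 or more droplets in each library. Of the 40 members 35 reached the minimum; Ifih1, Ifit2, Oas3, Oasl2 and Rsad2 did not. At an adjusted p under 0.05, CD4 T cells had 17 members higher and 5 lower than B cells, where 9.86% and 9.78% of all genes were called. The median log2 fold change of the members was 0.73, beside -0.03 over all genes, and 27 of 35 were positive. Ly6C-high monocytes had 15 members higher and 1 lower, where 9.86% and 10.6% of genes were called. Their median was 0.96 beside -0.38 over all genes. The tested member at 0 in monocytes, Ifi206, had a floor of 3 UMIs (10.8 CPM) that lay above its B level (4.83 CPM). Its direction there is therefore not known.

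In each of the other classes at least as many members were called lower as higher in this edgeR fit. NK cells had 4 members higher and 4 lower (background 4.67% and 6.86%). Neutrophils had 3 higher and 6 lower (7.25% and 13.1%), macrophages 2 and 6 (5.24% and 9.84%), and CD11c dendritic cells 2 and 9 (7.16% and 6.95%). Erythroid cells had 6 higher and 19 lower, in a comparison that called 20.6% and 25% of all genes. The median log2 fold change of members and of all genes was -0.257 and -0.275 in NK cells and -0.667 and -0.997 in neutrophils. It was -0.531 and -0.765 in macrophages, -0.269 and -0.289 in CD11c dendritic cells, and -2.006 and -0.298 in erythroid cells. DESeq2 called fewer members in CD4 T cells, 10 higher and 2 lower (background 6.56% and 4.82%), all of them among the 22 above. In monocytes it called 15 higher and 0 lower (9.97% and 5.55%), 14 of the 15 shared with edgeR. Without TMM scaling factors the median over all genes moved from -0.28 to 0.12 in NK cells, from -0.77 to -0.28 in macrophages and from -0.38 to -0.24 in monocytes. The genes called higher and lower then went from 439 and 644 to 692 and 343 in NK cells, from 492 and 924 to 629 and 411 in macrophages, and from 926 and 992 to 1011 and 722 in monocytes. The members' calls became 5 and 2, 3 and 5, and 16 and 1. DESeq2 called 4 members higher and 2 lower in NK cells (5.5% and 3.6% of all genes), and 3 and 2 in macrophages (8.65% and 3%). With antibody positivity read within each droplet, neutrophils had 10 higher and 6 lower (7.67% and 8.5%). Whether more members were lower or higher thus depended on the method in these classes. In NK cells and macrophages the balance over all genes depended on the method too.

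Of the signalling members, Irf7 and Usp18 were higher than in B cells in several classes and Stat2 and Irf9 in none. Irf7, the factor that amplifies type I interferon production, was at 21.9 and 22.7 CPM in B cells and at 51.9 and 48.9 in CD4 T cells. This gave a log2 fold change of 1.08 ± 0.27 (SE derived from the F statistic, edgeR adjusted p = 0.000461). It was at 134 and 220 CPM in monocytes (2.83 ± 0.32, adjusted p = 3.34e-17) and at 33 and 76.9 in neutrophils (1.53 ± 0.57, adjusted p = 0.0401). Usp18, which removes Isg15 from proteins and restrains the type I receptor, was at 4.03 and 2.46 CPM in B cells. It was called higher in 5 of 7 classes on few UMIs: 13 in CD4 T cells, 7 in NK cells, 7 in monocytes, 6 in CD11c dendritic cells and 8 in erythroid cells, where all 8 were in Main2. Stat2, a subunit of the factor activated by type I interferon, was lower in CD4 T cells (10.4 and 5.05 CPM, 9 UMIs) than in B cells (18.6 and 18.1), with a log2 fold change of -1.32 ± 0.51 (adjusted p = 0.0484), and its partner Irf9 (52.4 and 48 CPM in B cells) was called only in erythroid cells, where it was lower.

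Of the 5 interferon-inducible GTPases, 4 were higher in CD4 T cells than in B cells. Igtp, also known as Irgm3, was at 16.1 and 22.5 CPM in B cells and at 156 and 115 in CD4 T cells, a log2 fold change of 2.69 ± 0.21 (edgeR adjusted p = 4.14e-36). The gene Irgm2 overlaps Igtp on the same strand. Gbp7, a guanylate-binding protein, rose from 12.3 and 16.5 to 126 and 104 (2.89 ± 0.23, adjusted p = 2.63e-35), and Gbp2 from 13.7 and 11.8 to 64 and 45.5 (1.99 ± 0.31, adjusted p = 2.43e-09). Ifi47, another GTPase of the IRG family, was at 204 and 150 CPM in CD4 T cells against 53.3 and 51.4 (1.66 ± 0.17, adjusted p = 8.94e-22). In both libraries each of these 4 genes was higher in CD4 T cells than in B cells. Irgm1, a regulator of the same family, was at 38.1 and 42.1 against 24.6 and 30.4 and passed the test in no class other than erythroid cells, where it was lower.

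In NK cells 2 of the 5 passed the test. Gbp7 was at 55.4 and 99 CPM there (2.09 ± 0.46, adjusted p = 0.000106) and Ifi47 at 155 and 178 (1.32 ± 0.30, adjusted p = 0.000171), while Igtp (11.1 and 13.2) and Gbp2 (11.1 and 19.8) were at levels near those of B cells. In monocytes no GTPase was called, with Igtp at 21.1 and 29.3 and Gbp2 at 7.04 and 7.33. In CD11c dendritic cells Gbp7 was at 0 in both libraries, at least 1.44-fold lower than in B cells by the floor of 3 UMIs over the gate (edgeR adjusted p = 0.0474). Ifi47 was at 32.9 and 0 there, on 4 UMIs (-2.02 ± 0.61, adjusted p = 0.0092).

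The antiviral effectors were detected at low levels. Isg15, the ubiquitin-like modifier, was at 19.9 and 19.9 CPM in B cells, 60.6 and 37.1 in CD4 T cells (1.19 ± 0.28, adjusted p = 0.000245) and 98.6 and 117 in monocytes (2.28 ± 0.39, adjusted p = 9.43e-08). Herc6, the ligase that attaches it in mice, was at 9.85 and 8.97 CPM in B cells and 39.8 and 32 in CD4 T cells (1.82 ± 0.36, adjusted p = 7.62e-06), with 4 UMIs in monocytes. Ifit1, which binds RNA lacking the host cap mark, was at 2.24 and 1.23 CPM in B cells and 15.6 and 23.6 in CD4 T cells, on 23 UMIs (3.35 ± 0.60, adjusted p = 4e-07). In monocytes it was at 35.2 and 7.33 on 6 UMIs (3.42 ± 1.04, adjusted p = 0.00722). Its relative Ifit3, at 4.25 and 3.87 CPM in B cells, passed the test in none of the 7 comparisons. Ifit2 and Rsad2 (viperin) had 16 and 9 UMIs in the whole B gate and were not tested.

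The synthetase family was counted on few UMIs. Oasl2 was at 49.3 and 43.9 CPM in monocytes, on 13 UMIs, against 0 and 0.176 in B cells, on 1 UMI, and it was at 0 in CD4 T cells, NK cells and neutrophils. Oas3, an oligoadenylate synthetase, had 10 UMIs in monocytes (21.1 and 51.3 CPM) and 14 in CD4 T cells (12.1 and 11.8) against 2.02 and 1.06 CPM in B cells. Neither had enough UMIs for the test. Isg20, an exonuclease, was an exception to the low erythroid level. It was at 157 and 172 CPM in erythroid cells against 15.7 and 16.2 in B cells (3.47 ± 0.25, adjusted p = 1.5e-43), and at 41.6 and 20.2 in CD4 T cells (0.85 ± 0.33, adjusted p = 0.0477). Cmpk2, a mitochondrial nucleotide kinase, was also called higher in erythroid cells, at 10.8 and 26.8 CPM against 5.6 and 5.63 (1.94 ± 0.57, adjusted p = 0.00234).

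The sensors differed one by one. Zbp1, which binds Z-form nucleic acid, was at 28.7 and 30.8 CPM in B cells, 104 and 77.5 in CD4 T cells (1.51 ± 0.22, adjusted p = 6.47e-11) and 148 and 110 in monocytes (1.97 ± 0.34, adjusted p = 1.49e-07). Eif2ak2, the kinase PKR, was at 2.91 and 6.33 CPM in B cells and 28.2 and 51.3 in monocytes, on 11 UMIs (2.92 ± 0.71, adjusted p = 0.000442). It was at 5.41 and 28.7 in erythroid cells (2.08 ± 0.58, adjusted p = 0.00128). Of the RIG-I family, Ddx58 (RIG-I) was at 33.4 and 29 CPM in B cells and was called only in erythroid cells, where 2 UMIs were counted. Dhx58 (LGP2) had 77 UMIs in B cells (8.96 and 6.51 CPM) and 1 UMI in CD4 T cells (1.73 and 0), and was called lower there (edgeR adjusted p = 0.029). Ifih1 (MDA5) had 16 UMIs in B cells, 12 in CD4 T cells and 7 in monocytes, too few for the test.

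The Ifi200 proteins, which hold a PYHIN domain and bind DNA, include members that were lower outside B cells in most tests. Ifi209 was at 105.5 and 90.2 CPM in B cells and at 46.7 and 53.9 in CD4 T cells (-1.04 ± 0.22, edgeR adjusted p = 1.67e-05). It was at 0 in neutrophils, at least 6.3-fold lower by the floor (adjusted p = 2.63e-06), and at 49.3 and 23.2 in CD11c dendritic cells (-1.60 ± 0.42, adjusted p = 0.00192). Ifi214 was at 51.5 and 45.7 CPM in B cells, at 29.4 and 25.3 in CD4 T cells (-0.92 ± 0.29, adjusted p = 0.0116) and at 14.1 and 7.33 in monocytes, on 3 UMIs, where it was the 1 member called lower (adjusted p = 0.0068). It was at 0 in neutrophils, CD11c dendritic cells and macrophages, at least 3.14-fold, 4.73-fold and 1.82-fold lower than in B cells. Both were called lower in 6 of the 7 classes, the exceptions being monocytes for Ifi209 and NK cells for Ifi214.

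These 2 genes are close copies, and the counts may not separate them fully. Of the 31-base words in the last 500 bases of its transcripts, Ifi209 shares 58.6% with Ifi214, and Ifi214 shares 34.7% with Ifi209. Ifi203 was at 287 and 287 CPM in B cells, 383 and 337 in CD4 T cells without a call, and 33 and 9.61 in neutrophils (-3.60 ± 0.45, adjusted p = 4.88e-14); the gene Mndal overlaps it on the same strand. Ifi206 was at 5.15 and 4.57 CPM in B cells and was called in none of the 7 comparisons.

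Among membrane proteins, Ifitm3, which blocks virus entry at endosomes, gave the largest difference in the module. It was at 36 and 28.5 CPM in B cells and at 5411 and 5772 in monocytes, a log2 fold change of 7.29 ± 0.24 (edgeR adjusted p = 6.33e-194). Neutrophils held 1156 and 1211 CPM (5.38 ± 0.23, adjusted p = 3.71e-115), macrophages 944 and 691 (4.16 ± 0.25, adjusted p = 5.06e-60) and CD11c dendritic cells 600 and 586 (4.08 ± 0.23, adjusted p = 1.02e-68). Plasmacytoid dendritic cells held 22.6 and 18.2, on 2 UMIs. It was called higher than in B cells in all 7 comparisons.

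The lymphoid calls of Ifitm3 moved with monocyte transcripts in a few droplets. It was at 31.2 and 84.2 CPM in CD4 T cells and 33.2 and 191 in NK cells, so the excess was in Main2, where Lyz2, a lysozyme of myeloid cells, was at 359 CPM in CD4 T cells and 693 in NK cells against 45 and 44.3 in Main1. Of the 5 monocyte markers, the sum in the NK gate was 1030 and 1867 CPM, against 37860 and 45360 in the monocyte gate, with F13a1 at 0 in both libraries and Csf1r at 0 in Main1. Droplets with 3 or more Lyz2 UMIs numbered 0 and 4 in the CD4 T gate, 0 and 4 in the NK gate, and 3 and 8 in the B gate. Without them Ifitm3 was at 31.2 and 27 CPM in CD4 T cells, 33.2 and 7.3 in NK cells and 17.5 and 15.9 in B cells. The log2 fold change then was 0.74 in CD4 T cells (edgeR adjusted p = 0.0634) and -0.23 in NK cells (adjusted p = 0.918), so neither call held, while that of monocytes was 8.30. The members called were 15 higher and 5 lower in CD4 T cells (background 10.2% and 9.46%). They were 3 and 4 in NK cells (4.8% and 6.23%) and 14 and 1 in monocytes (10.3% and 9.55%). Ifit1 fell below 50 UMIs in that fit and was not tested.

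Bst2 (tetherin), which holds budding virions at the cell surface, was at 47.7 and 39.6 CPM in B cells. CD4 T cells held 93.5 and 82.5 (0.93 ± 0.20, adjusted p = 5.52e-05), macrophages 157 and 161 (1.40 ± 0.44, adjusted p = 0.0125) and monocytes 169 and 264 (2.17 ± 0.27, adjusted p = 2.76e-14). Ms4a4c, a four-span protein of the MS4A family, was at 224 and 252 CPM in B cells and 465 and 557 in monocytes (0.96 ± 0.17, adjusted p = 1.63e-07). In the other 6 classes it was called lower, with 43.3 and 42.1 CPM in CD4 T cells (-2.57 ± 0.19, adjusted p = 4.88e-38) and 1 UMI in macrophages.

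Ifi27l2a, a small hydrophobic protein, had its highest level in monocytes. It was at 406 and 409 CPM in B cells, 911 and 879 in CD4 T cells (1.05 ± 0.18, adjusted p = 1.8e-07) and 2367 and 2842 in monocytes (2.53 ± 0.19, adjusted p = 8.93e-37). NK cells held 33.2 and 205 (-2.02 ± 0.27, adjusted p = 1.93e-12), and 50% of these UMIs came from 1 droplet. Rtp4, a chaperone of receptor transport that binds foreign RNA, was at 11.9 and 18.8 CPM in B cells, 48.5 and 30.3 in CD4 T cells (1.25 ± 0.32, adjusted p = 0.000793) and 98.6 and 58.6 in monocytes (2.21 ± 0.45, adjusted p = 1.66e-05).

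The remaining members are nuclear and cytoplasmic restriction factors. Slfn2, a schlafen protein that keeps lymphocytes quiescent, was at 213 and 207 CPM in B cells, 308 and 342 in CD4 T cells (0.54 ± 0.12, adjusted p = 9.31e-05), 286 and 423 in neutrophils (0.96 ± 0.21, adjusted p = 4.47e-05) and 465 and 652 in monocytes (1.26 ± 0.16, adjusted p = 2.89e-14). Slfn5 was at 3.36 and 4.4 CPM in B cells and 21.1 and 51.3 in monocytes, on 10 UMIs (3.02 ± 0.78, adjusted p = 0.000979). Xaf1, which promotes apoptosis, was at 24.9 and 26.6 CPM in B cells, 43.3 and 47.2 in CD4 T cells (0.71 ± 0.27, adjusted p = 0.0482) and 113 and 103 in monocytes (1.90 ± 0.37, adjusted p = 5.52e-06). Trim30a, a ubiquitin ligase, was at 43.7 and 44.7 CPM in B cells and 141 and 154 in monocytes (1.59 ± 0.31, adjusted p = 3.99e-06).

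Sp100 was highest in CD8 T cells and Samd9l in B cells. Sp100, a component of nuclear bodies, was at 321 and 304 CPM in B cells and 336 and 340 in CD4 T cells without a call. It was called lower in neutrophils (88.1 and 76.9), macrophages (157 and 16.1), CD11c dendritic cells (132 and 69.6) and erythroid cells (37.9 and 42). Samd9l, which restricts translation, was at 112 and 104 CPM in B cells and was called lower in NK cells, macrophages, CD11c dendritic cells and erythroid cells. Parp14, an ADP-ribosyltransferase, was at 37.9 and 31.5 CPM in B cells and was called only in erythroid cells, where it was at 0 and at least 8.09-fold lower by the floor.

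The erythroid cells carried most of the module at a trace. Ms4a4c had 3 UMIs there, Ifi209 had 2 and Ifi203 had 7, against 2434, 984 and 2914 in the B gate. Slfn2 was at 0 and 11.5 CPM (-4.60 ± 0.34, adjusted p = 9.38e-41) and Ifi27l2a at 43.3 and 15.3 (-4.11 ± 0.31, adjusted p = 2.36e-38). Besides Isg20, Eif2ak2 and Cmpk2, those called higher were Ifitm3 (70.4 and 91.7 CPM, 1.42 ± 0.26, adjusted p = 4.19e-07), Xaf1 (135 and 22.9), of which 45.9% of UMIs came from 1 droplet, and Usp18. Xaf1 and Usp18 were above the B level in 1 library only.

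Gates below 20 droplets in a library were fitted separately, as an alternative added after the data had been seen. CD8 T cells had 9 members higher and 1 lower than B cells, where 3.08% and 4.44% of genes were called. The GTPases again were among them: Gbp2 was at 178 and 47 CPM (2.59 ± 0.54, edgeR adjusted p = 4.16e-05), Igtp at 160 and 73.8 (2.12 ± 0.46, adjusted p = 0.000129) and Ifi47 at 267 and 148 (1.62 ± 0.32, adjusted p = 1.45e-05). Against CD4 T cells, 0 members were higher and 1 was lower (background 0.286% and 0.318%), and that was Ifi27l2a, at 409 and 289 CPM against 911 and 879 (-1.52 ± 0.24, adjusted p = 1.49e-07). Of the 37 members tested in that contrast, 10 had an unadjusted p under 0.05. Of the CD8 T droplets 1 and 3 held 3 or more Lyz2 UMIs, and Ifitm3 was at 0 and 168 CPM in the gate with them and at 0 and 7.71 without them.

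Plasmacytoid dendritic cells, the chief producers of type I interferon, had 3 members higher and 3 lower than B cells (background 3.78% and 5.66%). Bst2, which marks these cells in the unstimulated mouse, was at 3726 and 4447 CPM, a log2 fold change of 6.01 ± 0.15. Irf7, held at a high level in this cell type, was at 294 and 164 CPM (2.75 ± 0.46, edgeR adjusted p = 8.98e-08), and Trim30a was at 158 and 273 (1.77 ± 0.42, adjusted p = 0.000542). Ms4a4c, Slfn2 and Ifi209 were lower.

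Other genes of the pathway were counted in the same fits. Of 16 receptors, kinases and factors, all tested, 5 were higher and 4 lower in CD4 T cells (background 9.86% and 9.78%). In monocytes 5 were higher and 3 lower (9.86% and 10.6%). Their median log2 fold change was 0.333 in CD4 T cells, beside -0.031 over all genes, and -0.295 in monocytes, beside -0.381. The feedback inhibitor Socs1 was at 83.1 and 109.5 CPM in CD4 T cells against 8.96 and 7.92 (3.42 ± 0.27, edgeR adjusted p = 4.7e-34). Irf8, a factor of B cells and myeloid cells, was at 43.3 and 23.6 against 491 and 480 (-3.94 ± 0.24, adjusted p = 1.51e-57). In monocytes the receptor chains Ifnar2 (247 and 337 CPM against 36.5 and 35.4) and Ifngr1 (564 and 462 against 85.1 and 89.9) were higher, with log2 fold changes of 2.87 ± 0.25 (adjusted p = 9.55e-29) and 2.42 ± 0.18 (adjusted p = 3.16e-40).

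Of 41 further interferon-stimulated genes, 33 were tested. In CD4 T cells 11 were higher and 3 lower (background 9.86% and 9.78%). Among the higher ones were the GTPases Gbp4, Gbp3, Irgm2 and Iigp1. Irgm2 overlaps the member Igtp on the same strand, so reads of these genes may not be separable. Iigp1 was at 69.3 and 35.4 CPM against 0.448 and 0.176 in B cells (6.74 ± 0.56, edgeR adjusted p = 2.99e-32). In monocytes 9 were higher and 1 lower (background 9.86% and 10.6%), with Ifi44 at 162 and 169 CPM against 2.69 and 3.52 (5.54 ± 0.45, adjusted p = 2.66e-33). None of those 4 GTPases was called in monocytes. Whether a member's difference from B cells differed between CD4 T cells and monocytes was not tested.

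Within the B gate, marginal zone cells (CD21/35 in the top 25% of the gate and IgD below its median, 468 droplets) were compared with follicular cells (CD21/35 below that mark and IgD at or above the median, 1720 droplets) in a fit of their own over 8445 genes. Of 29 members tested, 1 was higher and 5 were lower in the marginal zone gate (background 5.67% and 4.44%). Isg15 was at 31.9 and 31.6 CPM in marginal zone cells against 12.3 and 12.9 in follicular cells (1.48 ± 0.33, edgeR adjusted p = 0.00222). Ms4a4c was at 113 and 114 against 260 and 307 (-1.22 ± 0.13, adjusted p = 1.45e-08). Samd9l (66.7 and 53.5 against 112 and 126), Slfn2 (160 and 104.5 against 247 and 248), Ifi27l2a (304.5 and 253 against 388 and 472) and Sp100 were the others lower.

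All 6 differences had the same sign in both libraries. DESeq2 called 0 higher and 3 lower (background 2.9% and 1.34%), so the Isg15 call did not hold there. In the edgeR fit 9 of the 29 had an unadjusted p under 0.05. Without TMM factors the calls over all genes went from 479 higher and 375 lower to 394 and 649, and those of the members stayed at 1 and 5. Monocyte markers summed to 913.5 CPM in the marginal zone gate of Main1 and to 94.8 in that of Main2, and 75.6% of the Ifitm3 UMIs of the gate were in 1 droplet. Of the droplets with 3 or more Lyz2 UMIs, 1 was in the marginal zone gate of Main1 and 0 in that of Main2. Without such droplets of the B gate the same 6 members were called, 1 higher and 5 lower (background 6.05% and 4.86%).

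**Figure D3:**
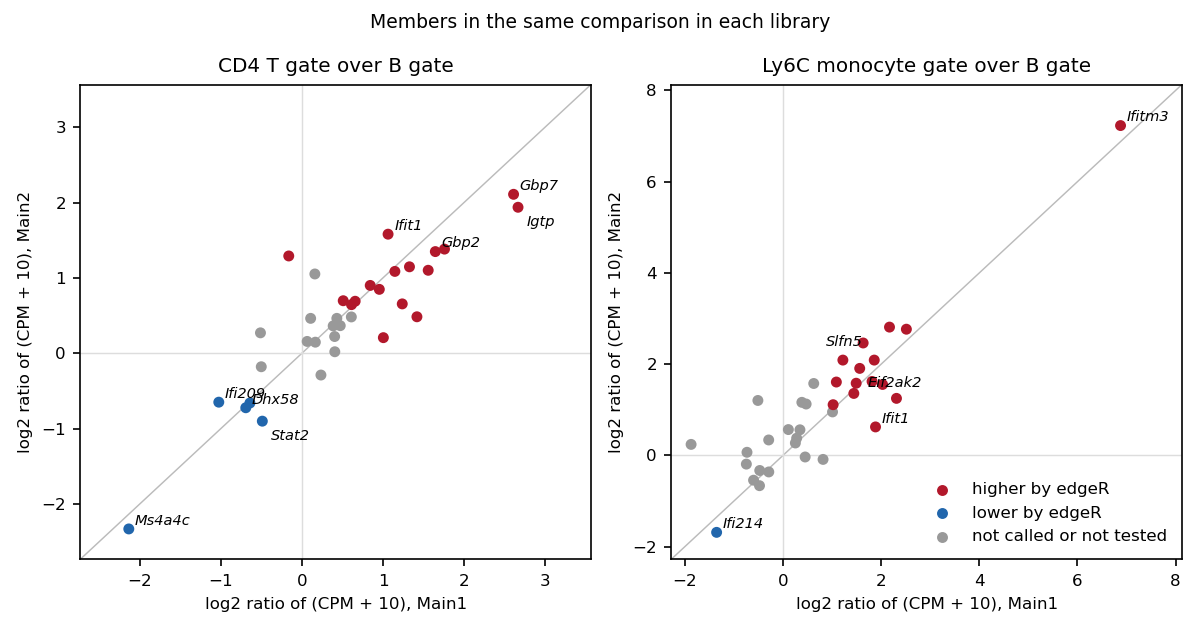
Log2 ratio of CPM plus 10 of each member to the B gate in Main1 (x axis) and Main2 (y axis), for CD4 T cells and Ly6C-high monocytes, in red and blue where edgeR called it higher or lower and in grey otherwise. Members called in CD4 T cells lie on the same side of 0 in both libraries except Ifitm3.

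Main1 and Main2 were then compared within gates, with 1 library each and therefore no test. In the B gate the summed level of the module differed by a log2 ratio of -0.02 (Main2 over Main1, with an interval for counting error alone of -0.06 to 0.02), and 0 of 29 members passed a 1.5-fold ratio of CPM plus 10 in either direction. With 1 CPM added in place of 10, 1 member passed it toward Main2. Over all genes 0.166% passed it toward Main2 and 0.58% toward Main1. Among members with at least 100 UMIs in the gate, the largest ratios on the scale of CPM plus 10 were those of Rtp4 (11.9 and 18.8 CPM, log2 ratio 0.40), Igtp (16.1 and 22.5, 0.32), Ifitm3 (36 and 28.5, -0.26) and Gbp7 (12.3 and 16.5, 0.25). Below that minimum, Eif2ak2 had a log2 ratio of 0.34 on 13 and 36 UMIs. Its counting interval was 0.17 to 2.16 on the ratio without the added 10. The counting interval of Gbp7 covered 0, at -0.07 to 0.93 on the ratio without the added 10, and those of Rtp4 (0.18 to 1.17), Igtp (0.05 to 0.92) and Ifitm3 (-0.66 to -0.02) did not.

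In the T gate, of 602 droplets, the summed ratio was -0.06 (-0.13 to 0.01). With log-ratios centred within each droplet in place of across droplets, the T gate held 5820 and 7101 member UMIs, against 3040 and 3748 before. The summed ratio in that larger gate was -0.22 (-0.27 to -0.17). In the gate of 602 droplets 25 members were counted, and 1 passed 1.5-fold toward Main2 and 0 toward Main1 (background 2.94% and 2.08%). The 1 was Ifitm3, at 40 and 125 CPM. The 5 monocyte markers summed to 469 and 1194 CPM in the T gate, where 2 droplets of Main1 and 14 of Main2 held 3 or more Lyz2 UMIs. The 5 neutrophil markers summed to 216 and 1770 CPM in its droplets other than the core-positive ones defined below. Over both libraries Lyz2 was at 36920 CPM in the monocyte gate and 18550 in the neutrophil gate. Which myeloid cells these transcripts came from was not tested. Without those droplets, thinned Ifitm3 UMIs numbered 10 in each library, against 10 and 43 with them. Over all droplets the ratio was -0.08 (-0.11 to -0.06), and 0 of 39 members passed 1.5-fold in either direction (background 0.507% and 0.477%). Main1 and Main2 carry the same pair of dates in their sample titles, and the tables do not separate these. The library and any difference between animals cannot be told apart.

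Members varied together only weakly from droplet to droplet. In the B gate 29 members had a UMI in at least 1% of the droplets of each library. Over their 406 pairs the median Pearson correlation of log levels was 0.022 in Main1 and 0.022 in Main2, against 0.0016 and 0.0015 over all pairs of 8113 genes that met the same rule. Pairs of genes in a droplet share its depth, so these values are descriptions. A correlation above 0.1 in both libraries was seen for 2 pairs (0.493%), and for 0.0114% of all gene pairs.

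The leading pair in B cells was Ifi214 with Ifi209, at 0.505 and 0.488. They were detected in 438 and 849 B droplets and together in 332, where independent detection would give 74.3; they are the close copies named above. The next was Irf7 with Ifi27l2a, at 0.139 and 0.162, detected together in 126 droplets against 75.8. Ifi27l2a also led the pairs with Ifi203 (0.111 and 0.096), Slfn2 (0.113 and 0.09) and Ifi214 (0.11 and 0.088), and the GTPases Gbp7 and Ifi47 stood at 0.098 and 0.09. Weak correlations of this size in sparse counts are no finding for a single pair.

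In the T gate 38 members gave 703 pairs with medians of 0.031 and 0.031, against -0.0075 and -0.0028 over all pairs of 8893 genes. Above 0.1 in both libraries were 28 pairs (3.98%), and 0.654% of all gene pairs. After thinning each droplet to 1000 UMIs, 3 of 325 pairs were above it (0.923%, against 0.563%). The mean standardized level of the members correlated with the log of a droplet's UMIs at 0.392 and 0.297 in T cells and 0.177 and 0.145 in B cells. By the lower of both libraries, the leading T-cell pair was Ifih1 with Ifit1, at 0.34 and 0.279 on 6 droplets with both. The close copies Ifi214 and Ifi209 came next, at 0.248 and 0.543, with 41 droplets holding both against 11 under independence. Ifit3 with Ifit1 stood at 0.267 and 0.175 on 6 droplets, Ifi214 with Usp18 at 0.165 and 0.243 on 5, and Ifih1 with Parp14 at 0.186 and 0.154 on 9. Irgm1 with Igtp, partners of the IRG family, stood at 0.265 and 0.147, with 39 droplets holding both against 19.9 under independence.

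**Figure D4:**
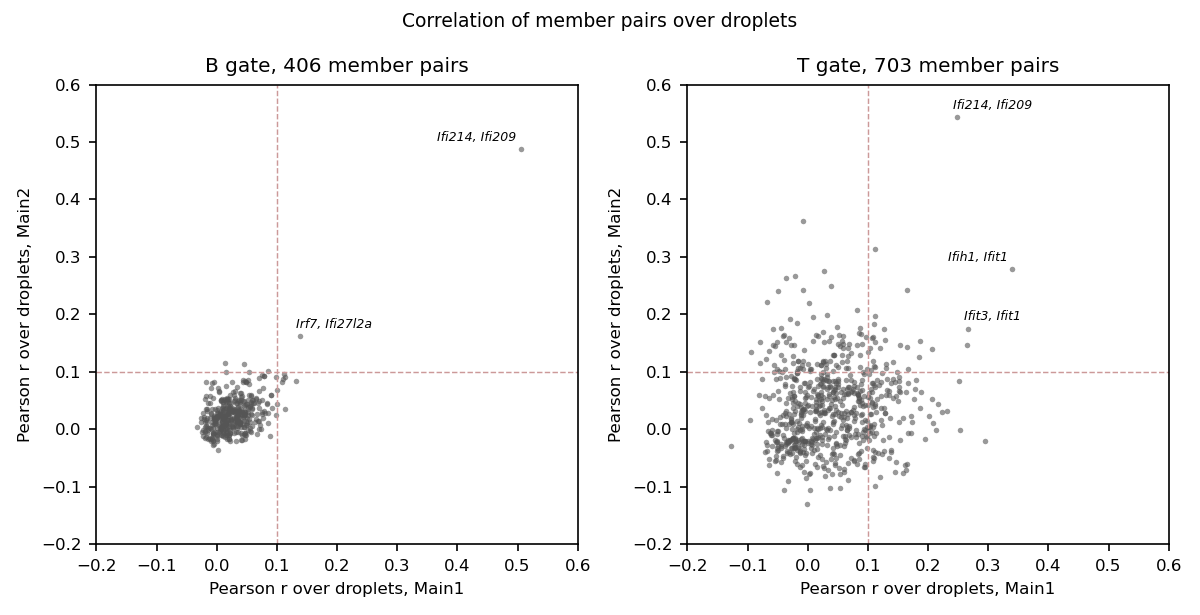
Pearson correlation of each pair of members over droplets in Main1 (x axis) and Main2 (y axis), for the B gate (406 pairs) and the T gate (703 pairs), with dashed lines at 0.1. In the B gate the pair Ifi214 and Ifi209 stands apart at 0.505 and 0.488, and most other pairs lie near 0.

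Of 8084 genes that are no members, those most like the module in B cells included, by the lower of both libraries' correlations with its mean standardized level, Mndal (0.231 and 0.184), Ly6e (0.119 and 0.149), Samhd1 (0.131 and 0.115), Oasl1 (0.107 and 0.117), Serpina3g, Pkib, Shisa5, Itm2b and Psme1. In T cells, of 8855 genes, they were Mndal (0.287 and 0.233), Ablim1 (0.225 and 0.233), Adgre5, Pdp1, Iqgap2, Samhd1 (0.199 and 0.183), Slc25a23, Pwwp2a, Pomp and Smchd1. Mndal overlaps the member Ifi203, so reads of the 2 genes may not be separable. Mndal and Samhd1 were in both lists.

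A small share of droplets held several of 8 core members at once, namely Isg15, Ifit1, Ifit2, Ifit3, Rsad2, Usp18, Cmpk2 and Irf7. With each droplet thinned to 1000 UMIs, a droplet with a UMI of at least 2 of them was counted as core-positive. In the B gate these were 19 of 5008 droplets (0.379%, exact binomial interval 0.229% to 0.592%), 10 of 2184 in Main1 and 9 of 2824 in Main2. A further 213 droplets held 1 core gene and 4776 held none. In the T gate 6 of 602 droplets were core-positive (0.997%, 0.367% to 2.16%), in the monocyte gate 4 of 84 (4.76%) and in the plasmacytoid gate 2 of 35 (5.71%). Among 57 erythroid droplets there were 0, which allows up to 5.26% by 3 counts (exact upper limit 6.27%). In each of these gates except the plasmacytoid gate, the share depended on the thinning. Without it they were 0.819% in B cells, 8.64% in the T gate, 19% in monocytes, 5.71% in plasmacytoid dendritic cells and 15.8% in erythroid cells, with 9 of 57 erythroid droplets positive.

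Within B cells the follicular gate held 2 core-positive droplets of 1720 (0.116%, 0.0141% to 0.419%), the marginal zone gate 0 of 468, which allows up to 0.641% by 3 counts (exact upper limit 0.785%), and the B droplets in neither gate 17 of 2820 (0.603%, 0.352% to 0.963%). Without thinning the shares were 0.523%, 0.641% and 1.03%. The median IgD tag count was 358 in core-positive against 557 in other B droplets of Main1, and 292 against 525 in Main2. The follicular gate itself was set on IgD. Median UMIs per droplet were 1609 and 1647.

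Part of the members that had not defined these droplets were higher in them. Of the 32 other members, 16 were higher in core-positive than in other B droplets in both libraries, 14 of them at least 2-fold. Among members with 20 or more thinned UMIs, 55.2% were higher in both, against 8.56% of all genes with as many. At least 2-fold higher in both were 48.3% of these members, against 3.38% of these genes. Ifi27l2a was at 22 against 3.94 UMIs per 10000 in Main1 and 8.89 against 4.18 in Main2. Ms4a4c was at 11 against 2.46 and 6.67 against 2.7, Bst2 at 2 against 0.46 and 8.89 against 0.384, and Ifi203 at 5 against 3.15 and 18.9 against 2.88. Of 39 further interferon-stimulated genes 7 were higher in both libraries and 18 in neither, and among the 7 was Ly6e (18 against 5.46 and 21.1 against 5.13). Gbp2 and Parp14 had 0 thinned UMIs in the 19 core-positive B droplets. Of the 32, 8 were higher in neither library, a count that includes members at 0 UMIs. Among members with 20 or more thinned UMIs this held for 5 of 29, against 5260 of 8808 genes with as many. Many of these levels rest on 1 or 2 UMIs.

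Monocyte transcripts stood out in the core-positive B droplets of Main2. The 5 monocyte markers summed to 6020 CPM there against 159 in other B droplets, while in Main1 they summed to 62.1 against 225. Ifitm3 was at 8.89 against 0.171 per 10000 in Main2 and at 0 in Main1. Without droplets holding 3 or more Lyz2 UMIs, 17 of 4997 B droplets remained core-positive (0.34%). Of the 32 other members 15 were then higher in both libraries, 12 of them at least 2-fold. Among members with 20 or more thinned UMIs 51.7% were higher in both, against 7.69% of all genes. At least 2-fold higher were 41.4% against 3.03%. In the T gate, with 3 core-positive droplets in each library, 4 of 32 other members were higher in both and 14 were higher in neither. Among those with 20 or more thinned UMIs 18.2% were higher in both, against 6.58% of all genes. Higher in neither were 6 of these 22 members, against 2271 of 3660 genes.

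**Figure D5:**
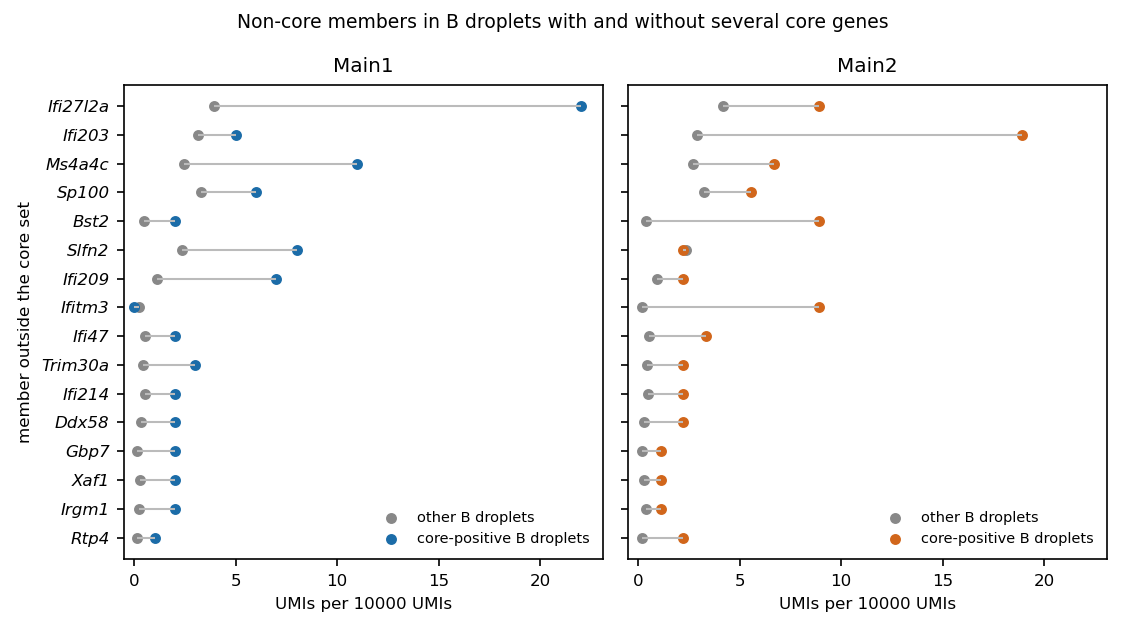
Level of the 16 members outside the core list with the highest levels in core-positive B droplets, in UMIs per 10000 thinned UMIs, in core-positive (coloured) and other (grey) B droplets of each library, joined by a line per member. Ifi27l2a lies at 22 against 3.94 in Main1 and at 8.89 against 4.18 in Main2.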

How the data were processed

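The authors deposited UMI counts per gene and per antibody tag for each droplet, made with Cell Ranger 3.0.2 and bcl2fastq on mm10, per the submitters' processing notes; filters on droplets are not given in the sources used here, and every droplet held at least 1000 UMIs. Column names mark droplets of Main1 and Main2, and no sample column was left unused. Gene identifiers were paired with symbols for 11682 of the 11713 genes. The members and all gene lists were chosen with earlier results of these data known.

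Gates were set on antibody counts: a mixture of 2 Gaussian components (scikit-learn 1.9.0) on centred log-ratios, positive above a posterior of 0.5, with minimum counts of 300 for Ly6G in neutrophils, 500 for Ly6C in monocytes, 150 for F4/80, 75 for CD11c and CD71, 30 for CD4 or CD8a and 5 for NKp46. Doublets were not called; droplets with both B-cell and T-cell tags fell outside the gates. Counts were summed per library and class and tested with edgeR 4.0.16 (R 4.3.3), with TMM, the library as a block and genes of at least 50 UMIs. The fit over 16 sums had 7 residual degrees of freedom, and the marginal zone fit over 6 sums had 2. The scripts were tested on simulated data. Values after ± are the absolute log2 fold change over the square root of the F statistic, since the edgeR test returns no standard error. For genes with few UMIs in a gate they are a rough guide only. Intervals are exact, at 95%, and cover counting error only.

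For each comparison, full values were given for up to 4 members called in each direction with the largest fold change of like sign in both libraries, for 6 pairs and 10 similar genes per gate (1 of those in the B gate is not reported here), and for 4 members between libraries with at least 100 UMIs. Other members were then described by role, chosen after their values were seen. Alternatives were DESeq2 1.42.0, no TMM, every gene, no replicate block, other gates, droplets under 4000 UMIs, thinning to 1000 UMIs, Spearman correlation, a detection minimum of 5%, 3 core genes and leaving out each library. Fits with gates of at least 10 droplets, and those without droplets of 3 or more Lyz2 UMIs, were chosen after seeing the data.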

Additional observations from a re-analysis of the deposited data

How the results depend on the processing

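Each comparison between classes rests on 1 sum per library, so the number of libraries and the UMIs of the small gates limit what could be called. Of 122 calls of members, 1 changed sign under an alternative, Ifitm3 in NK cells, as given above. Of the counts of members called, 152 stayed within 1.5 times the main count and 20 did not. Of the values for named members, 492 kept their side of the threshold and 48 lost it, 14 of these with DESeq2. Within-droplet positivity and droplets under 4000 UMIs left too few erythroid droplets for the fit. No alternative changed the highest or the lowest class by summed level.

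DESeq2 called 10 members higher and 2 lower in CD4 T cells (6.56% and 4.82% of all genes) and 4 and 2 in NK cells (5.5% and 3.6%). In macrophages it called 3 higher and 2 lower (8.65% and 3%). It called 4 lower in CD11c dendritic cells (3.61%), 0 lower in monocytes (5.55%), and 0 higher and 3 lower in marginal zone cells (2.9% and 1.34%). Droplets under 4000 UMIs gave 3 lower in CD4 T cells (8.56%), 2 lower in monocytes (11.4%) and 1 higher in CD11c dendritic cells (5.33%). Testing every gene gave 2 lower in monocytes (10%) and 1 higher in CD11c dendritic cells (6.29%). Fitting only the 2 classes compared gave 1 higher and 1 lower in macrophages (2.36% and 2.63%) and 2 higher in marginal zone cells (7%). Without TMM factors 2 were lower in NK cells (3.65%). Positivity within each droplet gave 10 higher and 6 lower in neutrophils (7.67% and 8.5%). It gave 4 higher and 5 lower in macrophages (6.77% and 7.3%), and 2 lower in CD8 T cells (4.64%). The cause of these shifts was not tested.

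Same-numbered samples could not be paired, since the tables merge them. The fit without the replicate block (no library term) called 15 members higher and 4 lower in CD4 T cells (8.99% and 9.01% of all genes). In monocytes it called 15 and 1 (9.44% and 9.8%). Over all genes in the marginal zone fit it called 376 higher and 245 lower, against 479 and 375 with it.

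With each library left out in turn there were no residual degrees of freedom, so only the median log2 ratio of CPM plus 10 over the members is given, with no test. It ranged from 0.45 to 0.48 in CD4 T cells, 0.73 to 1.12 in monocytes, -0.062 to 0.528 in CD8 T cells, -0.016 to 0.094 in NK cells, -0.235 to -0.067 in macrophages, -0.50 to -0.36 in neutrophils, -0.49 to -0.35 in plasmacytoid dendritic cells, -0.14 to -0.14 in CD11c dendritic cells and -0.63 to -0.56 in erythroid cells. It ranged from -0.230 to 0.017 for CD8 T against CD4 T cells and from -0.26 to -0.13 for marginal zone against follicular cells. The sign thus depended on the library in CD8 T cells, against B cells and against CD4 T cells, and in NK cells. The summed level ranged from 31.4 to 32.4 UMIs per 10000 in CD8 T cells and from 6.38 to 6.87 in erythroid cells.

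Without the leading member of each class, the summed level per 10000 UMIs was 18.6 in B cells, 25.5 in CD4 T cells, 26.6 in CD8 T cells, 26 in the T gate, 19.1 in NK cells, 13.8 in neutrophils, 60.5 in monocytes, 16.3 in macrophages, 27.4 in plasmacytoid dendritic cells, 13.8 in CD11c dendritic cells, 4.83 in erythroid cells, 14.7 in marginal zone cells and 20.4 in follicular cells. Thinned to 1000 UMIs it was 23.6 in B cells, 36.3 in CD4 T cells, 33.1 in CD8 T cells, 34.9 in the T gate, 34.4 in neutrophils, 22.2 in CD11c dendritic cells and 9.65 in erythroid cells. Neutrophils then lay between the CD8 T and CD4 T gates and no longer near the B gate. With positivity within each droplet it was 22.5 in B cells, 29.7 in CD8 T cells, 31 in the T gate, 30.7 in neutrophils and 7.49 in erythroid cells.

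The median correlation of pairs, averaged over the libraries, was 0.0153 in B cells and 0.0147 in T cells after thinning, 0.027 and 0.0522 by Spearman, 0.0324 and 0.0523 with detection in 5% of droplets, and 0.0213 and 0.0311 without droplets of 3 or more Lyz2 UMIs. Without thinning, 0.819% of B, 8.64% of T and 2.87% of all droplets were core-positive, and with at least 3 core genes 0.02%, 0.332% and 0.0986%. The log2 ratio of Main2 to Main1 was -0.217 in the T gate with positivity within each droplet, a gate with more member UMIs. It was -0.043 over all droplets after thinning.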
